A study of Macaca mulatta with 6 samples.

Results

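The miR-30 family was followed in plasma small RNA of 3 adult male rhesus monkeys (Macaca mulatta), sampled after and before occlusion of the middle cerebral artery (MCAO). Its members were chosen by name, as every entry called miR-30a, miR-30b, miR-30c, miR-30d or miR-30e, whatever the arm, the end of the sequence or the species of the name. This gave 12 of the 2046 entries of the table, 6 from the 5p arm and 6 from the 3p arm of the precursor hairpins. In the group after ischemia (n = 3 libraries), a clot had been flushed through a micro-catheter into the right middle cerebral artery, and blood was drawn 3 h after stroke onset according to the methods, while a label on one of the study's plots gives 2 h. The group before ischemia (n = 3 libraries) is the baseline blood of the same animals, so that each monkey is its own control. The monkeys are named here by the replicate number of the libraries. Libraries with equal numbers were taken as the same animal, which the sample labels do not state. The main tests nevertheless treated the libraries as unpaired, and fits with the monkey as a block were run as alternatives. All animals were anaesthetized with ketamine and propofol, only animals whose artery was still closed were kept, and no sham-operated group is among the samples, so ischemia cannot be told apart from the procedure, the anaesthesia and the time between the draws. The deposited unit is the normalized count, in which the reads assigned to an entry were multiplied by 1 factor per library.

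MicroRNAs guide Argonaute proteins to messenger RNAs through the seed, bases 2 to 8 of the mature strand, and lower the stability and translation of the messages they pair with. The miR-30 family is expressed in most tissues and is abundant in heart, kidney, lung and endothelium. In human and mouse cells its 5p strands are known to repress SNAI1 and other drivers of epithelial-to-mesenchymal transition, the autophagy gene BECN1 and the Notch ligand DLL4 of sprouting vessels. The 5p arm is the main product of each hairpin, and the 3p arm is the strand that is mostly degraded.

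The 5p entries carry the sequence that defines the family, shown here in the deposited DNA letters with the seed in capitals.
miR-30a-5p: tGTAAACAtcctcgactggaagct
miR-30e-5p: tGTAAACAtccttgactggaagct
miR-30c-5p: tGTAAACAtcctacactctcagct
Counted from 1 at the 5′ end, miR-30e-5p differs from miR-30a-5p by a single base, C13T, and miR-30c-5p differs from miR-30a-5p at 5 of 24 positions. The 5 rhesus 5p entries share their first 11 bases and their last 4 bases. miR-30d-5p differs from miR-30a-5p at 1 position and from miR-30e-5p at 2. miR-30b-5p, the shortest at 22 nt, differs from miR-30c-5p at 4 of 22 compared positions, the first of them base 19. Sequences were compared from the 5′ end without gaps, so missing bases shift those after them, and these 4 positions need not be substitutions. Over the whole table, 5 entries hold the seed GTAAACA at bases 2 to 8, and all 5 are miR-30 family members, so no entry of another name shares it. Since 3 of the members stand only 1 or 2 bases apart, the share of reads that the authors' software gave to the wrong one was not tested.

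The 3p entries, printed because they fall into separate seed groups, do not share the 5p seed.
miR-30a-3p: cTTTCAGTcggatgtttgcagc
miR-30e-3p: cTTTCAGTcggatgtttacagc
miR-30c-1-3p: cTGGGAGAgggttgtttact
miR-30c-2-3p: cTGGGAGAaggctgtttactct
miR-30a-3p, miR-30e-3p and miR-30d-3p have the seed TTTCAGT, which no other entry of the table has. miR-30a-3p and miR-30e-3p differ by G18A. The products of the pair of miR-30c genes have the seed TGGGAGA and differ by A9G and C12T from miR-30c-2-3p to miR-30c-1-3p, and the seed of miR-30b-3p is TGGGAGG. The names of the entries add how the deposited sequence departs from miRBase, for example mml-miR-30d-5p_R+2 with 2 more nucleotides at the 3′ end. By the RefSeq annotation (T2T-MMU8v2.0), the 6 genes form 3 neighbouring pairs. MIR30C-1 and MIR30E lie together within NFYC, the gene of a subunit of the transcription factor NF-Y. MIR30A has MIR30C-2 as its nearest miRNA gene, and MIR30B has MIR30D. The coordinates are left out because the build used for the deposited table is not given in the sources used here.

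Total counts, recovered from the steps between low values, were 6036831 to 9737589 in the libraries after ischemia and 10745499 to 15548693 before ischemia. Some markers of other sources of plasma RNA differed between the groups. Of 10 entries of lining epithelium (miR-192, miR-194, miR-215, miR-200, miR-141 and miR-429), 2 of them at 0 in at least 1 library, 8 were higher after ischemia and none lower by limma at an adjusted p under 0.05, and their summed share was 1.45% to 8.04% of the counts after ischemia and 0.102% to 0.222% before ischemia. Leukocyte markers took 3.46% to 3.89% after ischemia and 2.07% to 2.73% before ischemia (1 of 8 tested entries higher, 1 lower). Red blood cell markers (13.8% to 34.2% and 7.05% to 19.7%), platelet markers (3.69% to 5.79% and 4.74% to 7.88%) and the liver miRNA miR-122 (0.0651% to 1.82% and 0.146% to 1.36%) overlapped between the groups. By the same limma threshold, 0 of 10 tested red blood cell entries and 0 of 7 tested platelet entries were called. Within the monkeys, the red blood cell share was higher after ischemia in 3 of 3 and the platelet share lower in 3 of 3. Hemolysis, as the log2 of miR-451 over miR-23a-3p, was −0.17 to 2.19 after ischemia and 0.11 to 1.90 before ischemia. Unlike the red blood cell share, it was higher after ischemia in only 1 of 3 monkeys. The library of monkey 1 after ischemia held the most epithelial, liver and red blood cell miRNA. Plasma RNA comes from many cells, and fewer releasing cells cannot be told apart from less RNA released by each.

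The 5p arms were among the abundant miRNAs of plasma, and the groups overlapped in their joint level. Together the 5p entries took 3.43%, 4.22% and 4.14% of all counts in monkeys 1, 2 and 3 after ischemia, against 4.57%, 4.70% and 3.70% before ischemia. The share was lower in 2 monkeys and higher in monkey 3, and the groups overlapped. The means were 3.93 ± 0.436% after ischemia and 4.32 ± 0.545% before ischemia (SD, n = 3 each). The difference of −0.394 percentage points was smaller than either SD, and the exact two-sided permutation test of the means gave p = 0.4. The difference was −0.144 without monkey 1 after ischemia and −0.707 without monkey 3 before ischemia. On the deposited scale the 5p sum was 466956 ± 8183.7 normalized counts after ischemia and 396898 ± 79628 before ischemia (SD over 3 libraries in each group, p = 0.4 by the exact permutation test). The 2 scales differ in sign since the authors' factors gave the libraries after ischemia larger normalized totals. Rescaling each library to its own total moved the median log2 fold change of all tested entries by −0.37.

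Most of the 5p signal belonged to miR-30d and miR-30e. miR-30d-5p stood 8th of all entries by its mean and miR-30e-5p 19th, whereas miR-30a-5p, miR-30c-5p and miR-30b-5p stood at places 64, 84 and 92. After ischemia the order of the levels was miR-30d at 298083 ± 58661 normalized counts, miR-30e at 120484 ± 46164, miR-30a at 21966 ± 16378, miR-30c at 16096 ± 3841 and miR-30b at 10328 ± 832 (SD, n = 3). Before ischemia the order was the same, with miR-30d at 192218 ± 47991 normalized counts, miR-30e at 162023 ± 39794, miR-30a at 20716 ± 6365, miR-30c at 11654 ± 2395 and miR-30b at 10281 ± 2388 (SD, n = 3). miR-30d exceeded miR-30e in every library after ischemia, and the ranges of the pair did not overlap there, while before ischemia they did. miR-30a and miR-30c overlapped after ischemia, and miR-30c and miR-30b overlapped before ischemia. miR-30d-5p and miR-30b-5p, whose genes are neighbours, stood at opposite ends of the order.

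**Figure D1:**
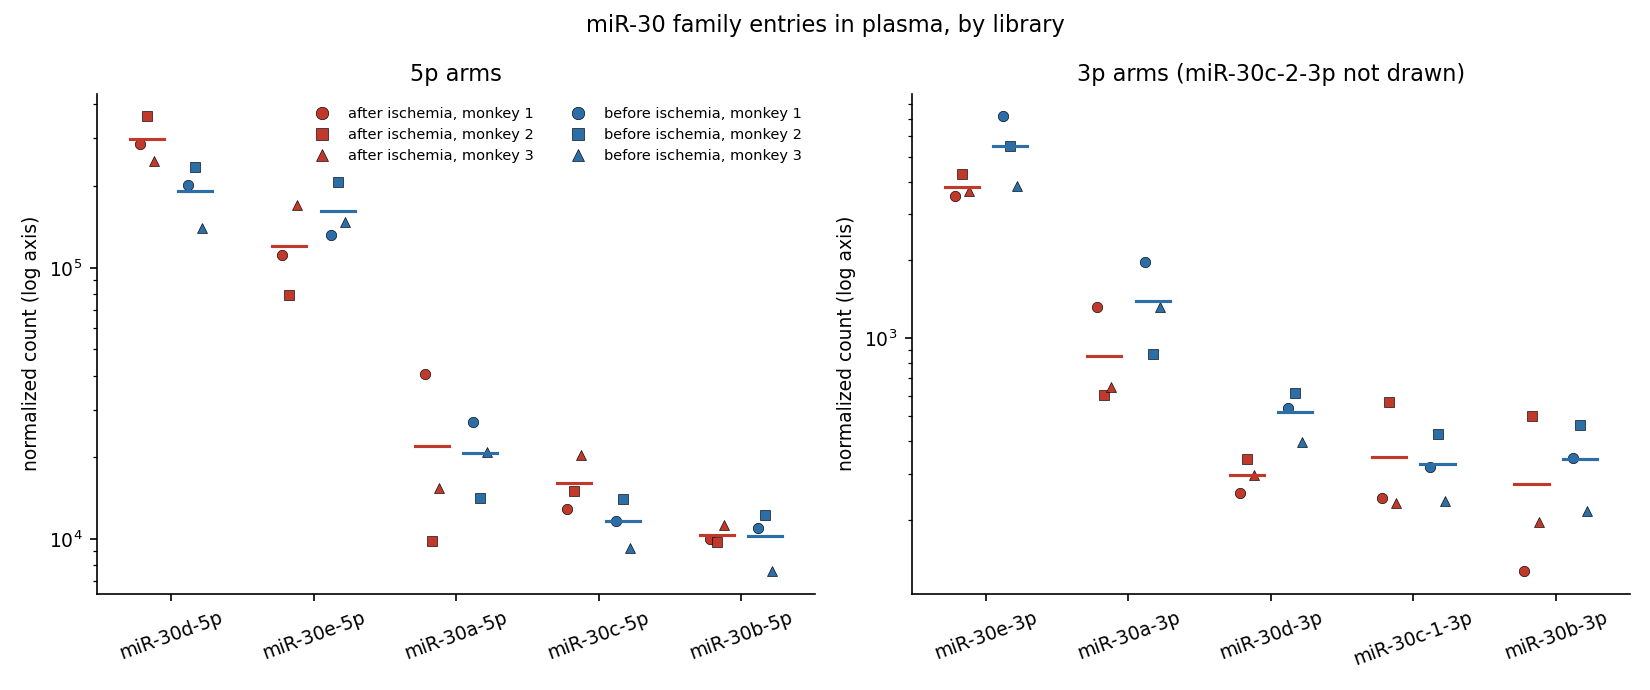
Normalized counts (log axis) of the 5p arms (left) and 3p arms (right) of the miR-30 family in each library, after ischemia in red and before ischemia in blue, with a marker shape for each monkey and a bar at the arithmetic mean of 3 libraries. The groups separate for miR-30d-5p (246853 to 362073 after, 140287 to 234932 before) and miR-30d-3p (252 to 341 after, 397 to 616 before), and overlap for the other entries drawn.

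No miR-30 entry passed the test between the groups. limma was fitted to log2(normalized count + 1) on the 807 entries with 10 or more normalized counts in 3 or more libraries, with Benjamini-Hochberg adjustment over all 807 and a threshold of 0.05. Of the 12 miR-30 entries, 11 were tested, and 0 were higher and 0 lower after ischemia, where 1.98% of all tested entries were called higher and 3.47% lower, or 5.45% in either direction. At an unadjusted p under 0.05 in limma the count was also 0 of 11, against 9.79% of all tested entries higher and 12.5% lower. With the monkey as a block, 1 of 11 was higher at that level, miR-30d-5p with an unadjusted p of 0.0284 in limma (adjusted p = 0.139), and 0 were lower, where 12.1% of all tested entries were higher and 13.6% lower. In an unequal-variance test per entry on the normalized counts, 0 of 12 had an unadjusted p under 0.05, where 1.76% of all entries were higher and 3.67% lower. Scaled by library totals, 11 entries of the table were higher and 46 lower, against 16 and 28 on the deposited scale. No miR-30 entry was among them, and at an unadjusted p under 0.05 in limma with library totals 4 of the 11 miR-30 entries were lower (miR-30d-3p, miR-30e-5p, miR-30e-3p and miR-30a-3p) and 0 higher, where 19.4% of all tested entries were lower and 4.43% higher. On the deposited scale the median log2 fold change was 0.03 over the 5 tested 5p entries and −0.60 over the 6 tested 3p entries, beside −0.06 over all tested entries. Of the tested entries of any miRNA named as 3p, 276 in all, the median was −0.22, and of the 269 named as 5p it was −0.02.

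On the deposited scale miR-30d-5p, the most abundant member, was the 5p entry whose groups did not overlap. It had 285322, 362073 and 246853 normalized counts in monkeys 1, 2 and 3 after ischemia, against 201434, 234932 and 140287 before ischemia. It was higher after ischemia in 3 of 3 monkeys and 11.5% of all tested entries likewise had groups without overlap in this direction. On the scale of normalized counts with 1 added, limma gave a log2 fold change of 0.65 with a standard error of 0.298 and an adjusted p of 0.243. Scaled by library totals the log2 fold change was 0.26 (adjusted p = 0.651 from limma), and as a share of all counts miR-30d-5p took 2.13%, 3.21% and 2.20% after ischemia, against 2.41%, 2.29% and 1.60% before ischemia. By this share the groups overlapped, and monkey 1 was lower after ischemia.

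miR-30e-5p, the partner of miR-30c-1 within NFYC, had a difference of the other sign. Its levels were 111517, 79461 and 170473 normalized counts after ischemia, against 131926, 207142 and 147001 before ischemia. On this deposited scale the level was lower in monkeys 1 and 2 and higher in monkey 3, and the groups overlapped. By limma the log2 fold change was −0.47, with a standard error of 0.347 and an adjusted p of 0.455. By library totals it was −0.86 (adjusted p = 0.174 from limma), where the median over all tested entries was −0.43. As a share of all counts miR-30e-5p took 0.831%, 0.705% and 1.52% after ischemia, against 1.58%, 2.02% and 1.67% before ischemia. That share was lower in each monkey, without overlap, and how many entries of the table did likewise was not counted.

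miR-30a-5p, the member known to repress BECN1 in human cells, had the largest standard error of the tested 5p entries. It had 40597, 9837 and 15465 normalized counts after ischemia, against 26928, 14208 and 21013 before ischemia. Monkey 1 was highest in both groups and monkey 2 lowest in both, and limma gave a log2 fold change of −0.13 with a standard error of 0.514 and an adjusted p of 0.927. The liver miRNA miR-122a-5p, mml-miR-122a-5p_R-1 in the table, had 244156, 7342 and 11333 normalized counts after ischemia, against 113642, 14994 and 19431 before ischemia. Monkey 1 was thus also highest and monkey 2 lowest in both groups. Before ischemia, however, monkey 1 stood far apart for miR-122a-5p but near monkey 3 for miR-30a-5p. The part of liver RNA in the spread of miR-30a-5p was not tested.

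miR-30c-5p, which is known to target the lipoprotein assembly protein MTTP in mouse and human liver cells, had 12902, 15027 and 20358 normalized counts after ischemia, against 11661, 14046 and 9255 before ischemia. It was higher in 3 of 3 monkeys, by a small margin in monkeys 1 and 2, and the groups overlapped (log2 fold change 0.46 with a standard error of 0.306 and adjusted p = 0.414 from limma, and 0.07 when scaled by library totals). miR-30b-5p had 10001, 9708 and 11273 normalized counts after ischemia, against 10963, 12254 and 7627 before ischemia. The log2 fold change of miR-30b-5p was 0.03 (95% interval −0.64 to 0.70, with adjusted p = 0.974 by limma), and it was −0.36 when scaled by library totals, so its direction depended on the scaling.

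Within the family, the share of miR-30d was larger after ischemia in each monkey, although the exact test did not pass. miR-30d held 62.0%, 76.0% and 53.2% of the summed 5p level after ischemia, against 52.6%, 48.7% and 43.1% before ischemia. Its share was higher in 3 of 3 monkeys, and the lowest share after ischemia lay just above the highest before ischemia. The mean was 15.6 percentage points higher (63.7 ± 11.5% after ischemia and 48.1 ± 4.76% before ischemia, SD, n = 3 each), with exact two-sided permutation p = 0.1, the smallest that 3 libraries against 3 allow, and 0.333 adjusted over the 5 members. miR-30e held 24.2%, 16.7% and 36.7% after ischemia, against 34.5%, 42.9% and 45.2% before ischemia. This share was lower in 3 of 3 monkeys, with a difference of −15.0 percentage points (exact permutation p = 0.2, adjusted 0.333), and the groups overlapped at monkey 3 after ischemia and monkey 1 before ischemia. For neither share could this exact test go below 0.1. The difference for miR-30d was 9.42 percentage points without monkey 2 after ischemia. A share of the family does not depend on how the libraries are scaled, but a higher share of one member lowers the shares of the others by construction.

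**Figure D2:**
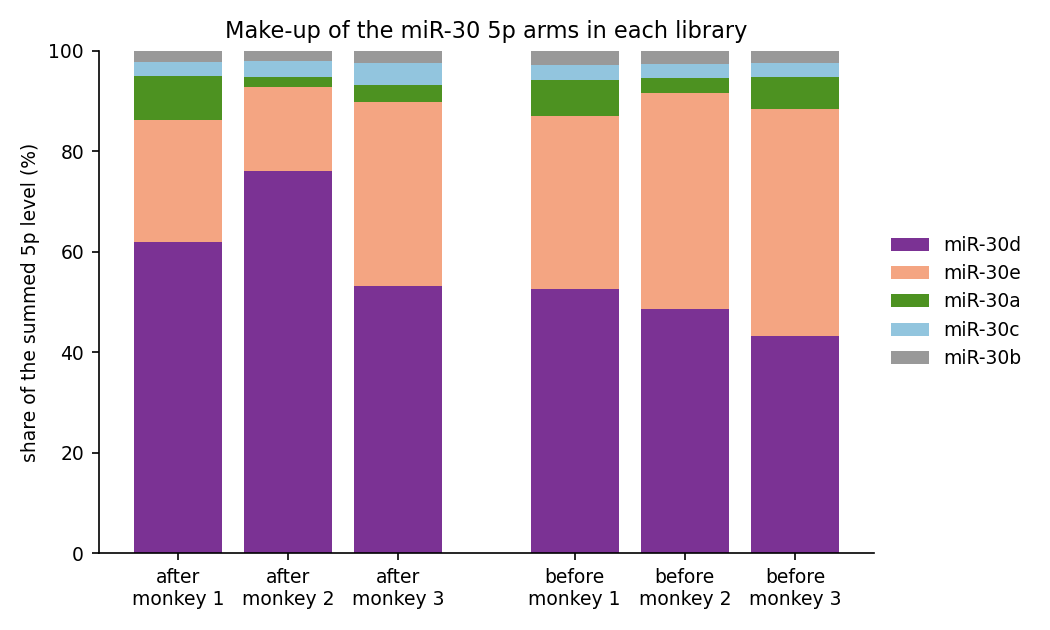
Share (%) of each miR-30 member in the summed 5p level of each library, with the libraries after ischemia on the left and those before ischemia on the right. The miR-30d segment fills 53.2% to 76.0% after ischemia and 43.1% to 52.6% before ischemia, and the miR-30e segment 16.7% to 36.7% and 34.5% to 45.2%.

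The remaining members were small parts of the family. miR-30a held 2.07% to 8.82% of the 5p sum after ischemia and 2.94% to 7.03% before ischemia (exact permutation p = 0.9). miR-30c held 2.80% to 4.38% after ischemia and 2.85% to 3.05% before ischemia (exact permutation p = 0.4), and miR-30b held 2.04% to 2.43% and 2.35% to 2.86% (exact permutation p = 0.2). The groups overlapped for each of these members.

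The 3p arms were rarer, and their sum did not pass the exact test on either scale. They took 0.0411%, 0.0563% and 0.0450% of all counts after ischemia, against 0.125%, 0.0770% and 0.0694% before ischemia. The share was lower in 3 of 3 monkeys with no overlap (0.0475 ± 0.00790% after ischemia and 0.0903 ± 0.0299% before ischemia, SD, n = 3 each, exact two-sided permutation p = 0.1, the smallest possible). The difference was −0.0429 percentage points, and −0.0257 without monkey 1 before ischemia. Shares of all counts fell in general. Scaled by library totals, the median log2 fold change was −0.43 over all tested entries and −0.60 over the 276 named as 3p. For the 6 tested miR-30 3p entries it was −0.99. On the deposited scale the 3p sum was 5514, 6347 and 5055 normalized counts after ischemia, against 10427, 7910 and 6101 before ischemia, where the groups overlapped (exact permutation p = 0.2). All 6 tested 3p entries had a log2 fold change below 0 on the deposited scale, although that of miR-30c-1-3p was near 0 and changed sign at a pseudocount of 10. With 2 of the 5p entries, 8 of the 11 tested entries lay below 0, where 52.5% of all tested entries did, and 3 lay above 0, where 47.5% did.

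miR-30d-3p, the passenger strand of the most abundant member, had 252, 341 and 298 normalized counts after ischemia, against 538, 616 and 397 before ischemia. It was lower in 3 of 3 monkeys and the groups did not overlap, a pattern found in this direction for 15.4% of all tested entries. The log2 fold change of miR-30d-3p was −0.79, and limma gave a standard error of 0.370 and an adjusted p of 0.254. These values rest on 160 to 266 counts per library after ischemia and 691 to 916 before ischemia.

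miR-30e-3p, the most abundant of the 3p strands, had 3526, 4302 and 3679 normalized counts after ischemia, against 7162, 5496 and 3873 before ischemia. It was lower in 3 of 3 monkeys, but the groups overlapped because monkey 3 before ischemia lay below monkey 2 after ischemia (a log2 fold change of −0.48 with a standard error of 0.323 and adjusted p = 0.415 by limma). miR-30a-3p had 1317, 601 and 649.96 normalized counts after ischemia, against 1973, 868 and 1319 before ischemia. This was also a lower value in 3 of 3 monkeys with overlapping groups, and monkey 1 was highest in its group after ischemia and before ischemia, as for the 5p strand of miR-30a (a log2 fold change of −0.71 with a standard error of 0.453 and adjusted p = 0.390 by limma).

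Of the 3p strands with the other seeds, miR-30c-1-3p and miR-30b-3p stood at places 303 and 311 of all entries by mean, close to miR-30d-3p at 285. miR-30c-2-3p was rarer, at place 527. miR-30b-3p had 127, 500.04 and 195 normalized counts after ischemia, against 347, 462 and 215 before ischemia, and miR-30c-1-3p had 243, 569 and 232 after ischemia, against 319, 429 and 235 before ischemia. Both were highest in monkey 2 in both groups. Their log2 fold changes were −0.49 (adjusted p = 0.672) and −0.0016 (adjusted p = 0.999) from limma. miR-30c-2-3p, known to repress XBP1 of the unfolded protein response in human cells, had 48.3, 33.3 and 0 normalized counts after ischemia, against 88.0, 39.7 and 62.2 before ischemia. The value of 0 allows up to 5.58 normalized counts, or 3 counts, in that library. The log2 fold change of miR-30c-2-3p was −2.36 with a standard error of 1.38 (adjusted p = 0.356 by limma), and −0.57 without monkey 3 after ischemia, so its size rests on that library.

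The twelfth entry was not tested. mmu-miR-30d-5p_L+2R+2, a form of miR-30d with 2 more nucleotides at the 5′ end and therefore a shifted seed, was listed at 0 in all 3 libraries after ischemia and had 10.1, 6.72 and 0 normalized counts in monkeys 1, 2 and 3 before ischemia. These are 13 and 10 counts, and a count of 0 after ischemia allows 3.85 to 5.58 normalized counts per library. It took at most 0.000121% of a library, so that the entry with the usual start held nearly all of the miR-30d-5p reads of the table.

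**Figure D3:**
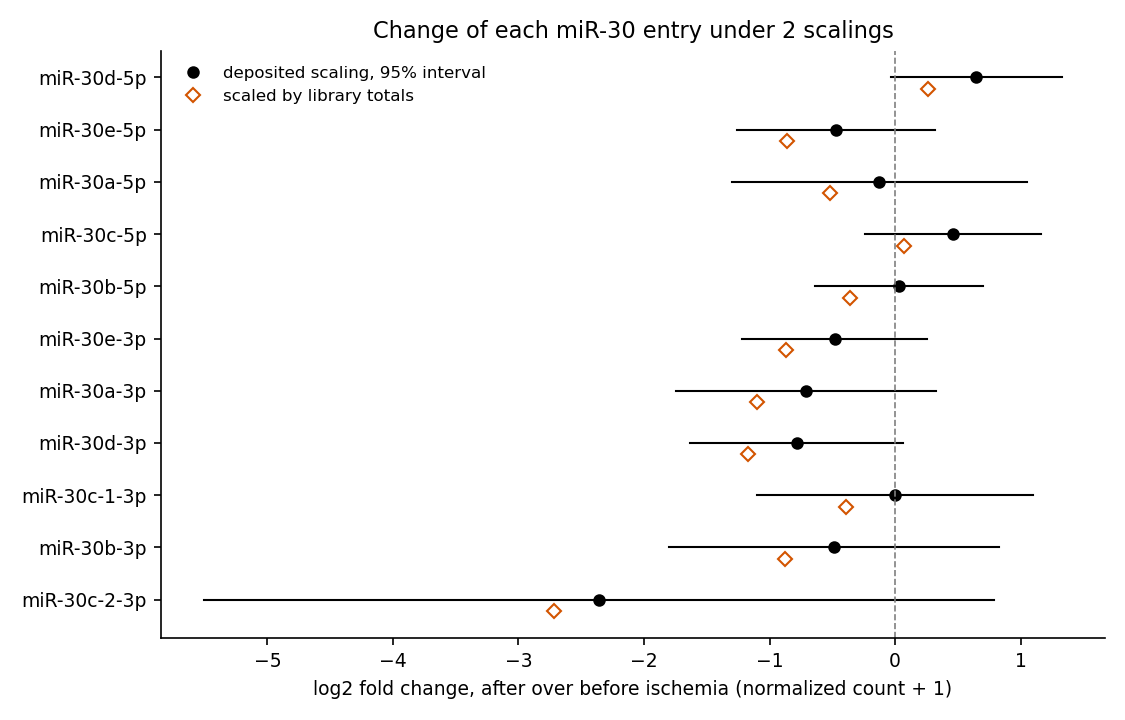
log2 fold change of each tested miR-30 entry, after over before ischemia, on the deposited scale (black points with 95% intervals from limma, n = 3 libraries per group) and after scaling by library totals (open diamonds). Every interval includes 0, and scaling by totals moves each point to the left, so that miR-30b-5p lies at 0.03 on the deposited scale and at −0.36 by totals.

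The arms of miR-30d moved apart, and this was the difference in the family that passed a test, although neither arm passed alone. The ratio of 5p to 3p within a library does not depend on the scaling. It was tested with limma on log2((5p + 1)/(3p + 1)) over all 161 precursors of the table for which both arms were named and passed the same filter, with adjustment over all 161. The log2 ratio of miR-30d was 10.14, 10.05 and 9.69 in monkeys 1, 2 and 3 after ischemia, against 8.55, 8.57 and 8.46 before ischemia. All 3 libraries after ischemia lay above all 3 before ischemia, and the spread within each group was small (9.96 ± 0.236 after ischemia and 8.53 ± 0.0579 before ischemia, SD, n = 3 each). The ratio rose by 1.43 on the log2 scale (standard error 0.255, 95% interval 0.84 to 2.03, adjusted p = 0.0121 from limma), that is, by 2.70 times. Groups without overlap were found for 24.8% of all precursors on the higher side and 14.9% on the lower side. The ratio was called for 1 of the 5 miR-30 precursors. Of all precursors, it was called higher for 12.4% and lower for 7.45%, or 19.9% in either direction, so the family lay near the share of the whole table. miR-30d stood 8th of 161 by its p and was 1 of 20 precursors with a higher ratio. The call held without each of the 6 libraries in turn (log2 change 1.34 to 1.57, adjusted p from 0.0180 to 0.0458) and without both libraries of monkey 1, whose library after ischemia held the most epithelial, liver and red blood cell miRNA, a setting chosen after seeing the data (1.35, adjusted p = 0.0469). The parts of red blood cell, leukocyte and epithelial RNA in the change of this ratio were not tested.

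**Figure D4:**
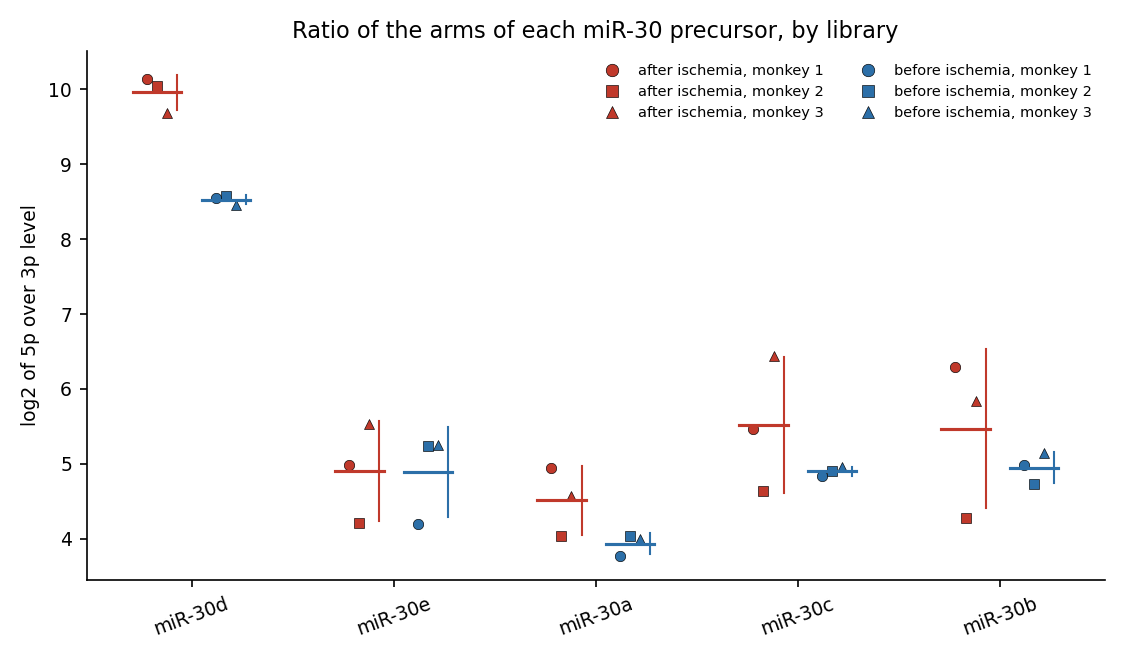
log2 ratio of the 5p to the 3p level of each miR-30 precursor in each library, after ischemia in red and before ischemia in blue, with a marker shape for each monkey and lines for the mean and SD of 3 libraries. The libraries after ischemia (9.69 to 10.1) lie above those before ischemia (8.46 to 8.57) for miR-30d, and the groups overlap for the other precursors.

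The other precursors of the family did not pass. miR-30a had log2 ratios of 4.94, 4.03 and 4.57 after ischemia, against 3.77, 4.03 and 3.99 before ischemia, and its change was 0.58 with a standard error of 0.320 (adjusted p = 0.217 by limma). miR-30c, with both of its 3p products summed, had 5.47, 4.64 and 6.45 after ischemia, against 4.84, 4.90 and 4.95 before ischemia (change 0.62, adjusted p = 0.359 from limma). miR-30b had 6.29, 4.28 and 5.84 after ischemia, against 4.98, 4.73 and 5.14 before ischemia (change 0.52, adjusted p = 0.50 by limma). In these 3 precursors the libraries after ischemia scattered more widely than those before ischemia, as they did for miR-30d. Monkey 2 had the lowest ratio after ischemia in each of them, and in miR-30e as well. miR-30e had 4.98, 4.21 and 5.53 after ischemia, against 4.203, 5.24 and 5.25 before ischemia, with a change of 0.01 (95% interval −1.01 to 1.03, adjusted p = 0.978 by limma). The median change was 0.58 over the 5 miR-30 precursors and 0.30 over all 161. All 5 changes lay above 0 and 0 below, where 56.5% of all precursors lay above and 43.5% below, but that of miR-30e changed sign when 1 library was left out. Whether the change of miR-30d differed from those of the other members was not tested.

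Outside the family, the rhesus entries whose pattern over the 6 libraries was nearest to that of the summed 5p level, by the root mean square difference of centred log2 levels, were miR-222-3p at 0.0909, miR-505-3p at 0.0996 and miR-652 at 0.179, out of 440 candidates with a median of 0.704. miR-222-3p had 20564, 22013 and 21506 normalized counts after ischemia, against 16336, 21415 and 16969 before ischemia, which like the miR-30 sum is a narrow range after ischemia and a peak at monkey 2 before ischemia. Among the members themselves, miR-30b-5p lay nearest to the sum at 0.157, with miR-30c-5p at 0.221 and miR-30d-5p at 0.261, while miR-30e-5p lay at 0.503 and miR-30a-5p at 0.759. Since miR-30d and miR-30e make up most of the sum, their own distances are not independent of it.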

How the data were processed

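Plasma small RNA of 3 monkeys was sequenced after and before MCAO. The authors filtered reads by quality and adapter, retained lengths between 18 and 26 nt, discarded matches to non-miRNA classes in Rfam and assigned the remainder to miRNA precursors with ACGT101-miR, while the version, the genome build and the rule for the scaling factors are not given in the sources used here. As deposited, the signal is a normalized count made by the authors, and 84.0% to 86.6% of a library's values were whole multiples of 1 step (within 0.01 counts) and the rest fractions, so no count model was used. 0 columns lack a sample, and 5 lines without content were skipped.

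Each entry was tested with limma 3.58.1 in R 4.3.3 (trend, pseudocount 1, no covariate). The authors' columns hold no comparisons. Arm ratios used the sum of different sequences per arm. Exact permutation tests and figures used Python 3.11.15, SciPy 1.17.1 and Matplotlib 3.10.9. The permutation tests took the libraries as unpaired and had no paired alternative. The limma step was checked on simulated data. The members, lists and tests were chosen with earlier results of these data known. Every miR-30 entry was named, plus the 3 rhesus entries nearest in pattern. Alternatives were other scalings, pseudocounts, filters, an unequal-variance test per entry, summed entries, a block for the replicate number and left-out libraries.

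Libraries with equal numbers were treated as 1 monkey's pair, as the study joins them. Deviations from the group means correlated at 0.18, 0.36 and 0.29 between them, and at −0.40 to 0.14 otherwise.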

Additional observations from a re-analysis of the deposited data

How the results depend on the processing

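The 5p to 3p ratio of miR-30d passed under every alternative run for it, with an adjusted p from limma of 0.00754 to 0.0469. With the replicate number as a block (replicate block) it was 0.0150. The other alternatives for this ratio were a pseudocount of 10, each library left out in turn and both libraries of monkey 1 left out. Other filters and an unequal-variance test were not run on it. No miR-30 entry was called higher or lower under any alternative run, and with the block the count was 0 again, while the whole table held 17 higher and 29 lower entries. Of 164 alternative values for single entries, 153 kept their direction and 11 reversed, all of them for miR-30b-5p, miR-30a-5p or miR-30c-1-3p. The unequal-variance test, which compares arithmetic means, is outside this tally. By those means miR-30a-5p and miR-30c-1-3p were higher after ischemia, against a log2 fold change below 0 in limma. miR-30b-5p was −0.36 by library totals and −0.17 to 0.17 with 1 library left out. The corresponding range was −0.70 to 0.32 for miR-30a-5p and −0.42 to 0.22 for miR-30c-1-3p, which was 0.00030 at a pseudocount of 10 and 0.20 without both libraries of monkey 1, a setting chosen after seeing the data. The arm ratio of miR-30e was −0.33 to 0.36 with 1 library left out and −0.37 without monkey 1. The difference in the 5p share of all counts was 0.808 percentage points when the 10 most abundant entries, miR-30d-5p among them, left the denominator. That of miR-30a in the 5p sum was −2.78 to 0.595 with 1 library left out. The cause of these reversals was not tested. Precision for 3p arms is limited by their counts, and no interval for counting error was added to the spread of the libraries.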
